A study of Homo sapiens with 12 samples.

Results

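MAGEB2, MAGEA3, MAGEA4, MAGEA6, MAGEA12, GTSF1, GPAT2 and M1AP are 8 genes that are normally read in male germ cells and that tumour lines can switch on. They were taken by symbol from the 61541 Ensembl rows of a raw count table of the lung adenocarcinoma line A549. All 8 were found. They were chosen by their measured counts, since the set was put together knowing that MAGEB2 and GTSF1 had counts in the control libraries and not in the knockout libraries. Levels of knockout against control are therefore given below as a description, with no test.

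RNA was sequenced from 12 libraries in 4 groups of 3, each taken 14 days after transduction with Cas9 guides. The lone control cells carried the non-targeting guide gNTC1, and in the lone knockout cells the guide targeted TYMS, which codes for thymidylate synthase, a source of thymidylate for new DNA. The other groups were control cells in co-culture and knockout cells in co-culture. The series text gives parental A549 as the partner of the knockout cells and says that their proliferation was restored in its presence. The labels name the tissue as lung adenocarcinoma and list no drug treatment in any group. All cells were kept in high-glucose DMEM with fetal bovine serum. The labels do not give the partner of the co-cultured control cells, how partners were separated before RNA was taken, whether the knockout was 1 clone, or whether replicates were separate cultures. The p-values below thus measure the spread between these libraries, which may be technical.

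MAGE genes of the A and B families lie on the X chromosome and are kept silent by DNA methylation in most body tissues. Their proteins share a MAGE homology domain, through which they bind RING ubiquitin ligases. MAGEA3 and MAGEA6 bind TRIM28, MAGEA4 binds RAD18, and MAGEB2 is known as an RNA-binding member that limits stress granules. GTSF1 is a small zinc-finger protein that assists PIWI proteins in silencing transposons, GPAT2 is a mitochondrial acyltransferase-family protein of the testis with a part in making piRNAs, and M1AP is needed for crossovers in male meiosis.

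The sequence before the start site sets apart the MAGE genes of the group, and shows how alike the pair of genes that responded to co-culture are. RefSeq promoters on GRCh38.p14 were found for all 8 genes. The stretches below are 130 bases that end before the transcript starts of both RefSeq and GENCODE 29, written 5′ to 3′ on the gene's strand. Capitals mark GGATGTGA in the MAGE genes and CCGGAAGT in GTSF1, words that were chosen after the sequences had been read. They lie at chrX:30215430-30215559 on the plus strand (MAGEB2), chrX:152698606-152698735 on the plus strand (MAGEA3), chrX:152769748-152769877 on the minus strand (MAGEA6), chrX:152733627-152733756 on the plus strand (MAGEA12) and chr12:54473603-54473732 on the minus strand (GTSF1).
MAGEB2: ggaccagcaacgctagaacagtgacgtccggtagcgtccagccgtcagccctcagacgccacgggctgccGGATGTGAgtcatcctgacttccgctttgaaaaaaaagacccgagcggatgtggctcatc
MAGEA3: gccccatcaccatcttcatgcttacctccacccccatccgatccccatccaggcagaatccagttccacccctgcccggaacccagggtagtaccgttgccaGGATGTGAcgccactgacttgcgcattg
MAGEA6: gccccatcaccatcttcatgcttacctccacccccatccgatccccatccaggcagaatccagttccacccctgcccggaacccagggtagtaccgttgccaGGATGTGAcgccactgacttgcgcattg
MAGEA12: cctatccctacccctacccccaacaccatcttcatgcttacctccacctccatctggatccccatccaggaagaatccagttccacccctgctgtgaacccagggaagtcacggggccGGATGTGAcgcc
GTSF1: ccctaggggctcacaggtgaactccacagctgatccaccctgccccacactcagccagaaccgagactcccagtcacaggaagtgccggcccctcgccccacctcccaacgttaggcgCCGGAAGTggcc
The 250 bases before the start of MAGEA3 and of MAGEA6 were identical, with 0 differences. The word GGATGTGA, searched on both strands, was present in each window of all 5 MAGE members, and in 339 of all 35116 promoter windows of this length (0.965%). The word CCGGAAGT, a form of the site bound by ETS factors, was present in GTSF1 and in 1202 windows (3.42%). Neither word was found in the windows of GPAT2 or M1AP. MAGEA12 carries the word too, and its transcript was close to absent in all 4 groups. A relation of the word to the level of these genes was not tested. The windows of MAGEB2, MAGEA3 and MAGEA6 each held 15 CpG and that of GTSF1 held 8, where the median was 11 over all windows.

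Facts of the whole series bear on how these genes can be read. Library totals lay between 14921371 and 35723762 counts, so 3 counts, the limit that a count of 0 allows, equal 0.0894 to 0.186 CPM in a library (counts per 1e6 counts, scaled by TMM). Intervals and limits from counts cover counting error only. TYMS, the targeted gene, was at 95.3 ± 5.26 CPM in the lone control, 93.3 ± 2.67 in the co-cultured control, 20.8 ± 0.547 in the lone knockout and 11.04 ± 0.36 in the co-cultured knockout (SD, n = 3 each). A549 is known for a homozygous deletion that takes in CDKN2A and MTAP. CDKN2A was at 99.2 ± 22.9 CPM in the lone control and 72.4 ± 15.5 in the co-cultured control, with 0 counts in each lone knockout library and 0 to 4 in the co-cultured knockout. MTAP likewise was at 59.5 ± 18.2 and 59.7 ± 5.73 CPM in the control groups and 0.581 ± 0.0567 and 0.471 ± 0.163 in the knockout groups. The libraries labelled control thus went against a known property of the line named on them, in all 6 cases, and the 6 labelled knockout did not. EPCAM, an epithelial surface marker, stood at 103.8 ± 13.6 and 101.4 ± 7.29 CPM in the control groups and at 0.62 ± 0.264 and 0.321 ± 0.185 CPM in the knockout groups. KRT7, a keratin of simple epithelia, went the other way, at 1908 ± 537 CPM in the lone control and 5946 ± 977 in the lone knockout (log2 1.64, SE 0.285, edgeR adjusted p = 0.000335). Of the 6 epithelial markers, 4 were called lower, 1 higher and 1 not in the lone knockout. Over all genes 28.6% were called lower and 28% higher. Between the co-cultured groups 5 were lower in the knockout and 1 higher, beside 25.3% and 24.1% of all genes. The 6 markers summed to 10900 to 17800 CPM in the lone control and 9880 to 13700 CPM in the lone knockout. All 9 of 9 NRF2 target genes typical of A549 were expressed in all libraries. The summed NRF2 targets ran from 6600 to 8600 CPM in the libraries labelled control and from 14900 to 16500 CPM in the knockout. The guide and the stock of cells cannot be told apart as the source of any difference between the libraries labelled control and those labelled knockout. Differences between co-cultured and lone libraries of the same label do not cross that boundary, and tests of the 8 genes are given for them. For MAGEA6, by itself and summed with MAGEA3, the co-culture difference in knockout minus that in control was also tested. That interaction does cross the boundary, and it draws on the knockout and control levels by which the genes were chosen.

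MAGEB2 (chrX:30215560-30220089, plus strand, 2 exon blocks, GENCODE 29 on GRCh38) was the member with the highest level in the libraries labelled control. It had 119, 160 and 145 CPM in the lone control and 170, 149 and 131 CPM in the co-cultured control, from 1918 to 3907 counts a library. All 6 knockout libraries held 0 counts of it. Summed over the 3 lone knockout libraries, with 56712951 counts in all, a count of 0 allows up to 0.0498 CPM, and over the co-cultured ones, with 83068370 counts, up to 0.0359 CPM. Against 3 counts per library MAGEB2 was at least 925-fold higher in the lone control than in the lone knockout, and at least 1360-fold higher in co-culture. MAGEB2 shares no stretch of 50 bases with the transcripts of the other 4 MAGE members, unlike MAGEA3 and MAGEA6 below.

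MAGEA3 (chrX:152698752-152702347, plus strand, 3 exon blocks) had 80.5, 109 and 121 CPM in the lone control and 111, 107 and 103 CPM in the co-cultured control. The lone knockout libraries held 1, 1 and 2 counts. The co-cultured knockout libraries held 22, 19 and 22 counts, or 0.948, 0.566 and 0.82 CPM, so every co-cultured library lay above every lone one, as was so for 16.7% of all genes tested. The ratio of control to knockout was 1570 when grown alone, with a counting interval of 613.7 to 5772, and 138 in co-culture.

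MAGEA6 (chrX:152766136-152769747, minus strand, 4 exon blocks) was lower than MAGEA3 in the control libraries and higher than it in the knockout. It had 11.1, 11.6 and 14.9 CPM in the lone control and 12.9, 17.4 and 17.8 CPM in the co-cultured control. The lone knockout libraries held 7, 9 and 3 counts, or 0.296, 0.448 and 0.182 CPM. The co-cultured knockout libraries held 122, 149 and 143 counts, or 5.25, 4.44 and 5.33 CPM. The 4 groups formed 3 levels without overlap between knockout alone, knockout co-cultured and the control groups, and the control groups overlapped each other. The ratio of control to knockout was 40.6 when grown alone and 3.2 in co-culture.

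MAGEA4 and MAGEA12 stayed near the floor of 3 counts in every group. MAGEA4 (chrX:151912509-151925170, plus strand) had 0 counts in all 6 control libraries, 1 count in the lone knockout and 4 in the co-cultured knockout. MAGEA12 (chrX:152733779-152737669, plus strand) had summed counts of 7, 9, 3 and 9 over the 3 libraries of the control alone, the control in co-culture, the knockout alone and the knockout in co-culture. Neither passed the filter on low counts, and no fold is given for them. MAGEA4 overlaps an antisense gene and MAGEA12 shares 33 exonic bases with CSAG4, so even these counts may not be theirs.

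GTSF1 (chr12:54455950-54473602, minus strand, 12 exon blocks), the cofactor of PIWI proteins, had 56.3, 72.1 and 62.5 CPM in the lone control and 98.9, 77.1 and 68.9 CPM in the co-cultured control. Like MAGEB2 it had 0 counts in all 6 knockout libraries. It was at least 416-fold higher in the lone control and at least 741-fold higher in the co-cultured control than in the matching knockout.

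GPAT2 (chr2:96021946-96039451, minus strand, 17 exon blocks) had 38.2, 49.9 and 62.9 CPM in the lone control and 34.2, 38.3 and 40.9 CPM in the co-cultured control. The lone knockout libraries held 1, 0 and 0 counts of it and the co-cultured ones 1, 3 and 0. The ratio of summed counts was 3060 when grown alone, with a wide counting interval of 549.2 to 121000, and 799 in co-culture (311.8 to 2936). The co-culture ratio was 1910 without the second co-cultured knockout library and 543 without the third. GPAT2 overlaps 473 exonic bases of the pseudogene FAHD2CP on the other strand. FAHD2CP was at 5.41 ± 0.407 CPM in the lone control and 4.18 ± 0.991 in the lone knockout, and did not pass edgeR's quasi-likelihood test (log2 fold change -0.38, SE 0.225, adjusted p = 0.167).

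M1AP (chr2:74557883-74648338, minus strand, 14 exon blocks), the meiotic gene of the group, had 20.3, 31.4 and 30.7 CPM in the lone control and 33.7, 27.1 and 23.0 CPM in the co-cultured control. The lone knockout libraries held 3, 0 and 1 counts and the co-cultured ones 2, 3 and 0. The ratio of summed counts was 416 (162 to 1528) alone and 456 (194.9 to 1405) in co-culture. Without the first lone knockout library the ratio alone was 1010, and without the second it was 277.

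**Figure D1:**
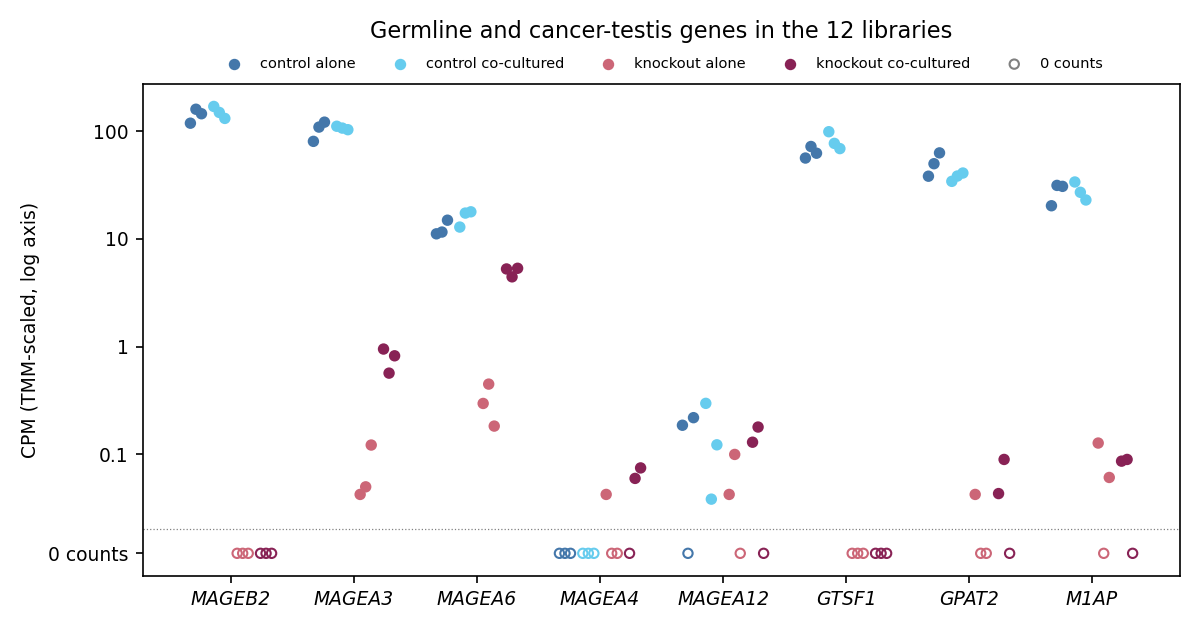
Level of each of the 8 genes in each of the 12 libraries, in CPM on a log axis, with open circles in the lowest band for libraries with 0 counts. The 6 control libraries lie far above the 6 knockout libraries for MAGEB2, MAGEA3, GTSF1, GPAT2 and M1AP, and MAGEA6 in the co-cultured knockout lies between them at 4.44 to 5.33 CPM.

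The filter on low counts was passed by 6 of the 8, and each of these passed through the control libraries where it is high. Their control and knockout libraries did not overlap in either culture, which the choice of genes had built in. For scale, 31.5% of all 16768 genes tested were lower in the lone knockout without overlap, and 28.5% in the co-cultured knockout. By adjusted p, 56.6% of all genes differed between lone knockout and lone control and 49.4% between the co-cultured groups. In bulk RNA of this kind, fewer cells that express a gene and less of its RNA per cell cannot be told apart.

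Per length of transcript, the order of levels in the lone control was MAGEB2 (87.8 ± 13.0 CPM per kb), MAGEA3 (58.0 ± 11.7), GTSF1 (25.2 ± 3.15), M1AP (9.16 ± 2.07), GPAT2 (8.86 ± 2.17) and MAGEA6 (6.73 ± 1.11; SD, n = 3 each). The ranges of mean ± SD of M1AP, GPAT2 and MAGEA6 overlapped. How reads shared by MAGEA3 and MAGEA6 were assigned bears on the levels of both. The co-cultured control kept MAGEB2, MAGEA3 and GTSF1 on top, at 93.3 ± 11.9, 59.9 ± 2.19 and 32.4 ± 6.14 CPM per kb, followed by M1AP at 9.31 ± 1.81, MAGEA6 at 8.6 ± 1.47 and GPAT2 at 6.65 ± 0.592. The co-cultured knockout had MAGEA6 first at 2.69 ± 0.266 CPM per kb, with MAGEA3 at 0.435 ± 0.109.

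The co-culture difference was not part of the contrast named in the choice of genes, and it was tested for those that passed the filter. The absence of MAGEB2 and GTSF1 from all knockout libraries was part of the choice. In the control cells none passed the test. Of the 6 that passed the filter, 0 were called by edgeR's quasi-likelihood test at an adjusted p under 0.05, 0 had an unadjusted p under 0.05, and DESeq2 called 0. The background was 0% (0 of 16768 genes, with 540 at an unadjusted p under 0.05 and 0 by DESeq2). The folds of co-cultured over lone control were 1.06 for MAGEB2 (95% interval 0.823 to 1.37) and 1.03 for MAGEA3 (0.801 to 1.33). MAGEA6 and GTSF1 were each at 1.28, with intervals of 0.912 to 1.79 and 0.968 to 1.7. GPAT2 was at 0.751 (0.528 to 1.07) and M1AP at 1.02 (0.656 to 1.57). These intervals bound the response that could have been missed: of the 6, the interval of MAGEA6 reached highest and that of GPAT2 lowest.

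In the knockout cells MAGEA6 and MAGEA3 rose in co-culture, and the other 4 members that passed the filter stayed at or under 3 counts in each library. MAGEA6 was 15.7-fold higher in co-culture than alone (95% interval 9.92 to 24.8, log2 fold change 3.97, SE 0.305, adjusted p = 1.33e-05 by edgeR's quasi-likelihood test), and was higher in 3 of 3 libraries than in any lone one. MAGEA3 had 63 counts in co-culture against 4 alone, a ratio of 11.3 with a counting interval of 4.22 to 42.9 (edgeR adjusted p = 0.000629). Of the 6 members that passed the filter, MAGEB2 and GTSF1 could not be called, since the choice of genes set them at 0 counts. The 2 calls are thus no measure of the members as a set. Over all genes 11.4% were called in this comparison and 5.97% called higher. That background rests on the libraries used, with 1907 genes called in all, 5648 without the third co-cultured knockout library and 548 without the first one. Leaving out the second co-cultured knockout library gave 824, and leaving out the lone knockout libraries in turn gave 608, 659 and 1031. Without the second lone control library 1268 were called. MAGEB2 and GTSF1 stayed at 0 counts, and GPAT2 and M1AP had at most 3 counts in a library of either group, so no fold is given for them. MAGEA12, which did not pass the filter, had 0 to 2 counts in a lone knockout library and 0 to 6 in a co-cultured one. Among the 6 that passed the filter, only MAGEA6 and MAGEA3 had over 3 counts in a co-cultured knockout library.

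The co-culture difference of MAGEA6 itself differed between knockout and control cells. It was 12.3-fold larger in the knockout (95% interval 6.92 to 21.7, log2 difference 3.62, SE 0.382, adjusted p = 0.000491 by the interaction term of edgeR's quasi-likelihood test), where 1.8% of all genes were called. These 301 genes became 3638 without the third co-cultured knockout library and between 118 and 349 without any other library, the lowest without the second co-cultured control library. MAGEA6 was the only member with more than 3 counts in at least 1 library of each group, so the interaction is given for it alone. Even so, co-culture left MAGEA6 in the knockout well under its control level, at 5.01 ± 0.495 CPM against 16.0 ± 2.74. The interaction draws on the knockout and control levels by which the genes were chosen, so its p-value is no independent support. It compares libraries labelled knockout with those labelled control, so guide and stock of cells cannot be told apart in it. The partner of the co-cultured control cells is not given either.

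**Figure D2:**
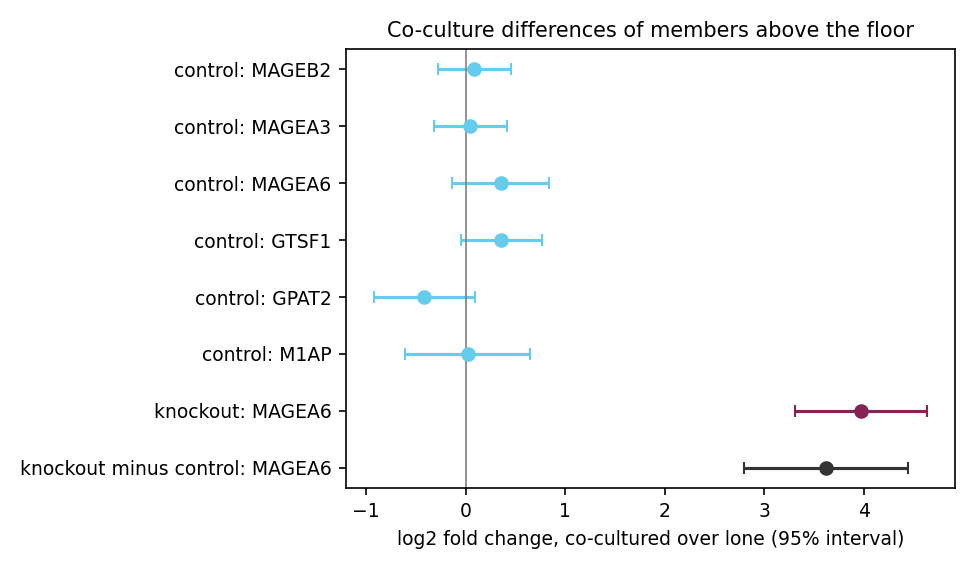
Log2 fold change of co-cultured over lone libraries with its 95% interval for each member that could be tested, in control cells (light blue) and knockout cells (purple), and the difference between both for MAGEA6 (dark grey). The 6 control intervals all include 0, while MAGEA6 in the knockout stands at 3.97.

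Other values beside the rise of MAGEA6 and MAGEA3 in the co-cultured knockout are given here. Fold changes between co-cultured and lone knockout went with transcript GC content over 16505 genes (Spearman's rho 0.433, across genes that are not independent). MAGEA6 has a GC content of 55.5% and MAGEA3 of 54.8%, against a median of 50.9%. With a GC offset in the fit the log2 fold change was 3.73 for MAGEA6 and 3.17 for MAGEA3, both still called. No library of the parental partner was analysed here, and a part of its RNA in the rise was not tested. The 0 counts of MAGEB2 and GTSF1 in every co-cultured knockout library were part of the choice of genes, so nothing about the partner is drawn from them. In the lone and the co-cultured knockout, the 4 leukocyte markers summed to 1.99 to 2.92 and 4.62 to 7.36 CPM, the 5 fibroblast markers to 22.2 to 24.6 and 12.9 to 16.7 CPM, and the 3 endothelial markers to 0.0846 to 0.348 and 0.302 to 0.634 CPM. Of these markers CD14, a monocyte surface gene, was higher in the co-cultured knockout (0.865 ± 0.0612 CPM alone and 3.25 ± 0.85 in co-culture, log2 difference 1.91, SE 0.354, edgeR adjusted p = 0.00563). COL1A1, a collagen gene, was lower (22.5 ± 1.41 and 14.4 ± 1.94 CPM, -0.64, SE 0.183, adjusted p = 0.0419). CD79A was at 1.53 ± 0.423 CPM alone and 2.66 ± 0.69 in co-culture (0.81, adjusted p = 0.126). PTPRC, CD3E and DCN had at most 1 count in a library. The part of such cells in the rise was not tested.

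MAGEA3 and MAGEA6 are near copies that face each other on the X chromosome, and their balance set control and knockout apart. Of the counts assigned to either gene, MAGEA3 took 87.8%, 90.4% and 89.1% in the lone control and 89.6%, 86% and 85.3% in the co-cultured control. In the co-cultured knockout it took 15.3% of 144 counts (exact 95% binomial interval 9.83 to 22.2), 11.3% of 168 (6.95 to 17.1) and 13.3% of 165 (8.55 to 19.5). The lone knockout libraries held only 8, 10 and 5 such counts, with shares of 12.5%, 10% and 40% and intervals from 0.253 to 85.3%. So the gene that dominated in control libraries was the minor one in the co-cultured knockout, in 3 of 3 libraries. The shares come from the contrast by which the genes were chosen and are not tested.

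**Figure D3:**
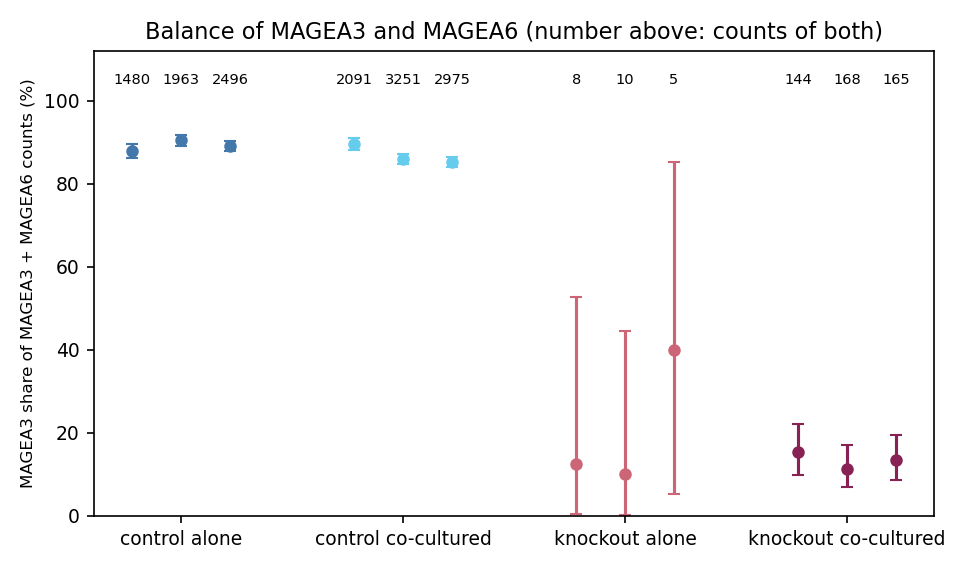
Share of MAGEA3 in the counts of MAGEA3 and MAGEA6 together, in percent, for each library, with exact 95% binomial intervals and the number of counts printed above. Control libraries sit between 85.3% and 90.4%, co-cultured knockout libraries between 11.3% and 15.3%.

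How reads that match both genes were assigned is not given in the sources used here, and it bears on these shares. Of all 50-base windows of the MAGEA3 transcripts 54.9% also occur in MAGEA6, and 34.9% of 100-base windows. For MAGEA6 the figures are 52.0% and 33.0%. With the counts of both genes summed into 1, which does not depend on that assignment between the pair, the co-culture log2 difference in knockout cells was 3.9 (edgeR adjusted p = 1.75e-06) and the interaction was 3.82 (adjusted p = 3.63e-05).

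MAGEA3 and MAGEA6 lie at either end of a cluster of 8 genes, 67.4 kb apart by lower coordinate. Between them, MAGEA2, MAGEA2B, CSAG2 and CSAG3 were read in the control libraries and at or near 0 in the knockout. MAGEA2, a MAGE gene with a near-identical copy in MAGEA2B, was at 2.52 ± 0.596 CPM in the lone control and had 0 counts in all 6 knockout libraries. CSAG3, a cancer-testis gene beside it, was at 4.54 ± 1.45 CPM in the control alone, at 5.46 ± 0.804 CPM in its co-culture, and had at most 1 count in a knockout library. CSAG2 was at 0.544 ± 0.425 CPM in the lone control, from 1 to 14 counts, and had 0 counts in the knockout. CSAG1 and MAGEA12, in the middle of the cluster, had at most 7 counts in any library. Counts assigned to the genes at the ends of the cluster rose in the co-cultured knockout, with the split between that pair uncertain. Between them, MAGEA2, MAGEA2B and CSAG2 stayed at 0 counts and CSAG3 had at most 1 in a library. These inner genes were far lower than MAGEA3 in the control. A return to the share of the control level that MAGEA3 reached might thus not be seen in them.

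**Figure D4:**
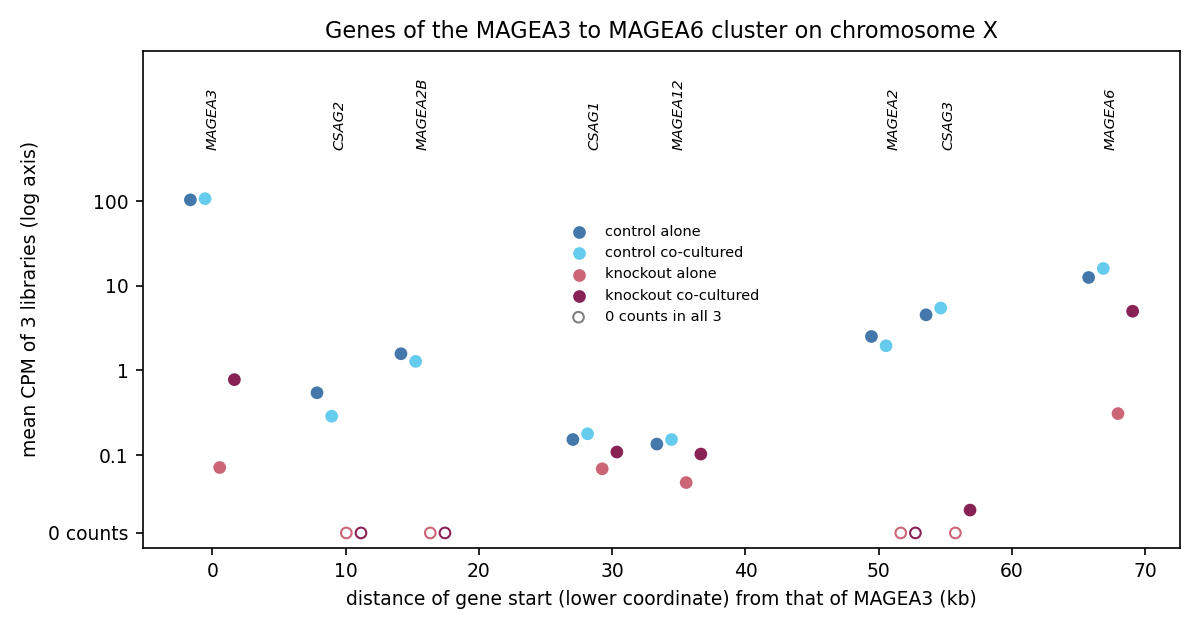
Mean CPM (log axis, 3 libraries a group) of the 8 genes of the cluster, placed by the distance of their lower coordinate from that of MAGEA3 in kb. Open circles stand for groups with 0 counts in all 3 libraries. In the co-cultured knockout MAGEA3 (0.778 CPM) and MAGEA6 (5.01 CPM) stand above the genes between them.

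Around the 8 genes, 29 other genes within 100 kb passed the filter. In the lone knockout 5 of them were called higher, 13 lower and 11 not, where 28% of all genes were called higher and 28.6% lower. MAGEA2, MAGEA2B and CSAG3 are among the 13. They passed the filter through the control libraries and had 0 counts in the lone knockout, so they could only be lower. The neighbours did not all follow the members. NR0B1, a nuclear receptor gene near MAGEB2, was at 6.82 ± 1.67 CPM in the lone control and 42.01 ± 8.65 in the lone knockout (a log2 difference of 2.62, SE 0.245, adjusted p = 1.8e-06). GABRE, a GABA receptor subunit gene near MAGEA4, was likewise higher in the knockout, at 1.12 ± 0.374 against 19.03 ± 6.96 CPM (log2 fold change 4.08, SE 0.443, adjusted p = 6.91e-06). GABRQ, another receptor subunit gene near MAGEA3, was lower, at 1.43 ± 0.156 against 7.08 ± 0.855 CPM (log2 fold change -2.31, SE 0.25, adjusted p = 6.07e-06). Beside M1AP, the genes LOXL3 and DOK1 were lower in the knockout, with log2 fold changes of -2.44 and -2.37, and SEMA4F did not pass the test (-0.18, adjusted p = 0.398). In co-culture of the control cells, 0 of the 29 were called, beside 0% of all genes. In co-culture of the knockout 4 were higher and 1 lower, where 11.4% of all genes were called and 5.97% called higher. MAGEA2 and MAGEA2B, with 0 counts in both knockout groups, could not be called there.

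For each tested member, the genes whose log2 CPM followed it most closely over the 12 libraries were sought among 13471 genes. The libraries fall into control and knockout, so a high r mostly restates that split, and no p is given. GTSF1 was the closest gene to MAGEB2 and MAGEB2 to GTSF1 (Pearson r rounds to 1). GPAT2 was followed by CBLC, a ubiquitin ligase gene, and by CDKN2A, the cell cycle inhibitor named above (r = 0.999 each). M1AP was followed by KDF1 and ACOT11 (0.997 each), and MAGEA3 by PKIB, a protein kinase A inhibitor gene, and SMIM3 (0.997 each). For these 5 members between 979 and 1196 genes had an r over 0.95. MAGEA6 had 48 such genes. Those closest to it were EGR1 (0.981) and FOS (0.977), transcription factor genes of the immediate early response. EGR1 was at 63.3 ± 6.61 CPM in the lone control, 53.8 ± 8.37 in the co-cultured control, 0.856 ± 0.215 in the lone knockout and 20.9 ± 3.21 in the co-cultured knockout. FOS was at 7.41 ± 0.784, 6.31 ± 0.423, 0.718 ± 0.152 and 3.45 ± 0.258 CPM in the same order.

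Other genes of the same families and pathways were taken from lists, and most germline genes on them did not pass the filter. Of the 20 other germline-type MAGE genes, MAGEA2 and MAGEA2B passed the filter, each through the control libraries, and with 0 counts in the knockout they could only be lower there. The lower bounds on the ratio of lone control to lone knockout were 16.5 for MAGEA2 and 10.3 for MAGEA2B. The other 18 were not tested. Of 6 broadly expressed MAGE genes tested, 3 were higher, 1 lower and 2 not called in the lone knockout. Over all genes 28% were called higher and 28.6% lower. The median log2 fold change of the 6 was 0.42, against 0.09 over all genes. MAGED2 was higher in the knockout (113 ± 18.6 against 166 ± 14.2 CPM, log2 fold change 0.55, SE 0.159, adjusted p = 0.01). MAGED1 and NSMCE3, a subunit of the SMC5/6 complex, did not pass the test (0.28, adjusted p = 0.0822, and -0.05, adjusted p = 0.764). With co-culture of the knockout NSMCE3 rose (log2 fold change 0.52, SE 0.136, adjusted p = 0.0299), from 47.3 ± 5.3 to 67.9 ± 5.35 CPM.

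Among 4 cancer-testis genes tested of 61 found, 2 were higher and 2 lower in the lone knockout, beside 28% of all genes called higher and 28.6% lower. Apart from PRAME, the gene called higher had at most 3 counts in each lone control library. PRAME, a repressor of retinoic acid signalling, was at 87.4 ± 1.45 CPM in the lone control and 109 ± 6.12 in the lone knockout (a log2 difference of 0.32, SE 0.127, adjusted p = 0.0471). TEX19, a germ cell gene that restrains retrotransposons, was at 2.89 ± 0.698 and 0.379 ± 0.259 CPM (log2 fold change -2.99, SE 0.424, adjusted p = 6.8e-05). CSAG3, which also passed through the control libraries alone, was at least 29.7-fold lower. Without the second lone control library 2 of these 4 were called.

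None of the tested genes on the piRNA pathway list was called lower in the lone knockout. That list leaves out the members GTSF1, with 0 counts there, and GPAT2, with at most 1 count in a library. Of 7 genes tested of 28, 4 were higher in the lone knockout, 0 lower and 3 not called (median log2 fold change 0.74). The share called in either direction is close to the 56.6% of all genes. By direction, 28% of all genes were called higher and 28.6% lower. SPOCD1, which directs DNA methylation to transposons by way of piRNAs, was at 4.07 ± 0.262 CPM in the lone control, 3.73 ± 0.619 in the co-cultured control, 36.6 ± 2.36 in the lone knockout and 91.1 ± 15.5 in the co-cultured knockout (log2 difference alone 3.17, SE 0.177, adjusted p = 1.66e-08). TDRD7, a Tudor-domain protein, was also higher (0.74, SE 0.257, adjusted p = 0.0252), and PLD6, a mitochondrial protein of piRNA processing, did not pass alone (0.26, adjusted p = 0.165). In co-culture of the knockout SPOCD1 rose by 1.32 (log2, SE 0.158, adjusted p = 0.000295) and PLD6 by 0.74 (SE 0.155, adjusted p = 0.0114). PIWIL2, the only PIWI gene that passed the filter, had at most 10 counts in a lone control library and 3 to 8 in a lone knockout library (-0.39, adjusted p = 0.636). With co-culture of the knockout it rose by 2.05 (SE 0.555, adjusted p = 0.0343), to 21 to 40 counts. MYBL1, a transcription factor of spermatocytes that drives piRNA genes, was higher in the lone knockout (12.3 ± 2.23 against 2.76 ± 1.58 CPM, log2 difference 2.16, adjusted p = 0.000268), and in co-culture of the knockout it fell by 1.47 (SE 0.346, adjusted p = 0.0197).

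Of 16 meiotic recombination and synapsis genes tested of 47 found, 5 were higher, 2 lower and 9 not called in the lone knockout, beside 56.6% of all genes called. CCNB1IP1, a crossover factor, was lower, at 23.0 ± 3.58 against 37.7 ± 0.641 CPM (log2 fold change -0.71, SE 0.14, adjusted p = 0.000795). PSMC3IP, a recombinase cofactor, and C11orf80 did not pass (0.22, adjusted p = 0.332, and -0.02, adjusted p = 0.939).

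The 25 genes listed for the silencing of germline genes all passed the filter. In the lone knockout 3 were higher, 8 lower and 14 not called (median log2 fold change 0.02), beside 28% of all genes called higher and 28.6% lower. The list also holds TET1, TET2 and TET3, whose enzymes act against DNA methylation. TET3 is 1 of the 3 called higher (log2 fold change 1.08, SE 0.223, edgeR adjusted p = 0.00117). DNMT1, the maintenance DNA methyltransferase, was at 320 ± 23.9 CPM in the lone control and 144 ± 3.37 in the lone knockout (a log2 difference of -1.16, SE 0.121, adjusted p = 4.39e-06). EHMT2, a histone H3 lysine methyltransferase, fell from 277 ± 58.0 to 73.0 ± 9.31 CPM (-1.93, SE 0.201, adjusted p = 4.84e-06). WDR5 did not pass (-0.29, adjusted p = 0.0736). Co-culture of the knockout left DNMT1 lower again, at 103 ± 4.18 CPM (-0.47 against lone, SE 0.12, adjusted p = 0.0263), while EHMT2 did not pass the test (0.12, adjusted p = 0.702).

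Partners and targets of the MAGE ligases, 8 of 9 tested, were split, with 2 higher and 2 lower in the lone knockout, beside 56.6% of all genes called. TRIM28, the ligase bound by MAGEA3 and MAGEA6, was lower, at 1120 ± 236 against 2384 ± 500 CPM (log2 fold change -1.09, SE 0.214, adjusted p = 0.000835), and so was TRIM27, at 82.9 ± 4.59 against 128 ± 21.6 CPM (-0.62, SE 0.149, adjusted p = 0.00324). TRIM28 was at 1042 ± 210 CPM in the co-cultured knockout (-0.1 against lone, adjusted p = 0.769), where MAGEA6 rose. Of 14 glycerolipid acyltransferase and lipin genes, kin of GPAT2 by reaction, 5 were higher, 3 lower and 6 not called in the lone knockout, a share close to that of all genes. AGPAT2 was at 279 ± 78.1 and 142 ± 33.1 CPM in lone control and knockout (-0.97, SE 0.277, adjusted p = 0.00927), and GPAT4 and AGPAT3 did not pass (0.21, adjusted p = 0.155, and 0.18, adjusted p = 0.226). All adjusted p-values of single genes here are from edgeR's quasi-likelihood test over 16768 genes.

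**Figure D5:**
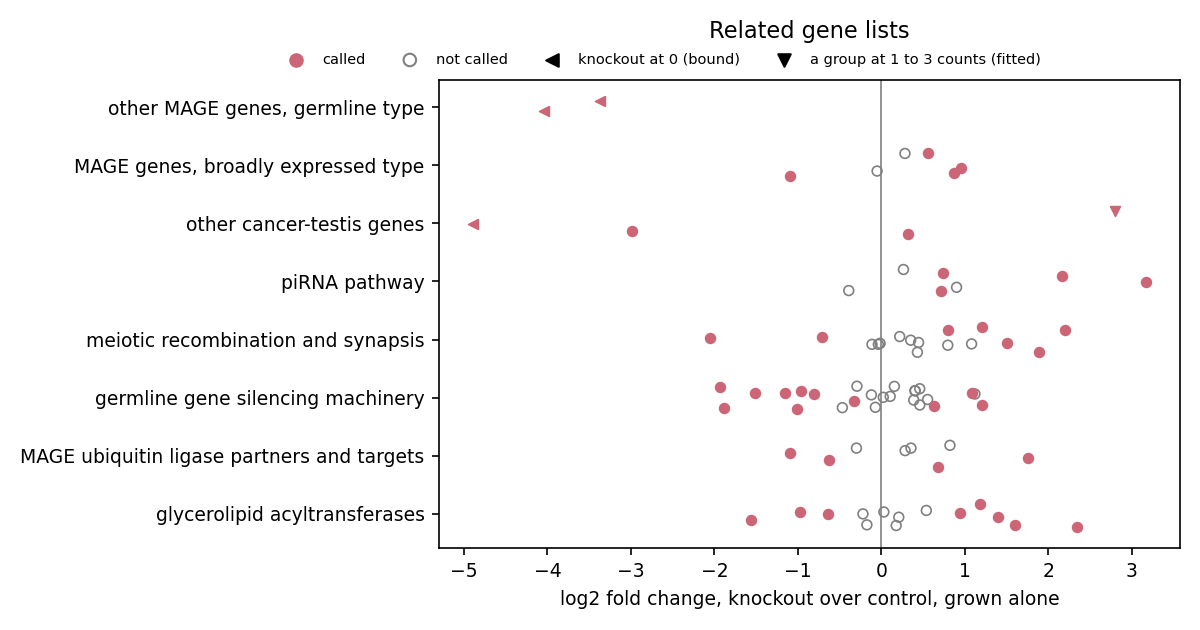
Log2 fold change of lone knockout over lone control for each tested gene of the 8 lists, filled where called. Left-pointing triangles mark genes with 0 counts in the knockout at the bound set by 3 counts per library, and the down-pointing triangle a gene with 1 to 3 counts in a group, at its fitted value. MAGEA2, MAGEA2B and CSAG3 lie furthest to the left, while the piRNA pathway lies mostly to the right.

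In the co-cultured groups the list counts for knockout against control were 4 higher and 1 lower of 6 broadly expressed MAGE genes. They were 6 and 0 of 7 listed piRNA genes, 4 and 1 of 16 meiotic genes, and 1 and 11 of the 25 genes listed for silencing. Ligase partners had 1 and 3 of 8, and acyltransferase genes 5 and 1 of 14. The background there was 24.1% called higher and 25.3% lower.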

How the data were processed

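The deposited values are raw counts from the authors, as integers for 61541 Ensembl identifiers in 12 libraries. Per the submitters' processing notes, FastQC, STAR 2.7.9a, featureCounts, R 4.2.1 and DESeq2 1.36.0 were used with GRCh38. The annotation release, the strand setting and the treatment of reads that match several genes are not given in the sources used here. Per the labels' protocols, total RNA was isolated with miRNeasy and libraries were made with NEBNext Ultra RNA.

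edgeR 4.0.16 in R 4.3.3 was used for all tests. The filter filterByExpr over the 4 groups left 16768 genes, which were scaled by TMM and tested with the robust quasi-likelihood F-test in one model of 4 group means, with Benjamini-Hochberg adjustment over all genes tested and calls at an adjusted p under 0.05. The biological coefficient of variation was 22.1%. The procedure was tested on simulated data. Group values are means ± SD of TMM-scaled CPM. A group with 0 counts was set at 3 counts per library to give a lower bound, and groups with 1 to 3 counts were compared by the ratio of summed counts with an exact Poisson interval. DESeq2 1.42.0 served as an alternative. Symbols were found for 42045 identifiers, and positions came from GENCODE 29 (58366 identifiers). Promoters came from RefSeq.

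The genes named are the 8 members, TYMS, the 3 tested genes of each list with the highest mean level, the 2 genes most correlated with each tested member (mean of at least 1 CPM, log2 CPM with a prior count of 2), tested genes within 100 kb of a member, and marker genes. One gene that this rule selects is not reported here. PIWIL2, MYBL1, CSAG1, CSAG2, TET1, TET2 and TET3 were named after their values were seen. The members and lists were chosen with earlier results of these data known. Replicate pairs differed by more than sampling noise (chi-square of 8.77 to 130 per gene), so each library was counted once. Same-numbered replicates did not deviate together, and no pairing was used.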

Additional observations from a re-analysis of the deposited data

Results flagged for a closer look

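The co-culture difference of MAGEA6 was larger in the knockout than in the control by 3.62 on the log2 scale (SE 0.382, adjusted p = 0.000491 by the interaction term of edgeR's quasi-likelihood test), and this difference between the 2 kinds of cell is why it is listed. In the knockout the 3 co-cultured libraries held 122, 149 and 143 counts against 7, 9 and 3 alone. In the control they held 217, 454 and 438 against 180, 188 and 273. Leaving out 1 library at a time gave 3.38 to 3.96. Guide, stock of cells and co-culture partner cannot be told apart in this difference. It also draws on the knockout and control levels by which the genes were chosen, so its p-value is no independent support.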

How the results depend on the processing

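The co-culture rise of MAGEA6 and MAGEA3 in the knockout and the interaction of MAGEA6 stayed called under every alternative run for them. Without 1 library at a time their log2 values ranged over 3.73 to 4.31, 3.13 to 3.89 and 3.38 to 3.96. With the replicate block they were 3.96 (edgeR adjusted p = 0.000102), 3.4 (0.00231) and 3.61 (0.00295). The replicate numbers gave no evidence of pairing, as the correlations of deviations between same-numbered libraries ran from -0.54 to 0.491. The interaction was not run with only the groups compared, since it needs all 4.

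Changes of sign occurred only in control co-culture, for values near 0 that were never called, and the cause was not tested. MAGEB2 (main 0.09) was -0.0269 with the replicate block and a GC offset and -0.0477 with the GC offset alone, and ranged from -0.0231 to 0.188 without 1 library at a time. MAGEA3 (main 0.05) ranged from -0.106 to 0.171, and was negative without the first lone control library. M1AP (main 0.02) was -0.00993 with DESeq2 size factors, -0.01 with DESeq2's Wald test, -0.0437 with the replicate block and GC offset and -0.0386 with the GC offset alone, and ranged from -0.154 to 0.143.

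Some list counts moved by over 1.5 times. In the lone knockout, meiotic genes called were 11 with no filter on low counts, against 7, and other cancer-testis genes ranged from 2 to 4. In the co-cultured knockout, meiotic genes called were 3 with the replicate block, against 5, and ranged from 2 to 7 without 1 library at a time, piRNA genes from 3 to 6 and MAGE ligase partners from 2 to 5. Scaling by library size alone moved the all-gene median (log2) in the lone knockout from 0.09 to 0.24 and of the interaction from 0.01 to -0.11. Over all genes, calls in co-culture of the knockout were 1907, and 1080 with the replicate block, 635 with only the groups compared, 3340 with no filter, 3347 with DESeq2, 4695 with the GC offset and 3965 with both block and offset. Interaction calls were 301, and 179, 1342, 877, 1249 and 789 with the block, no filter, DESeq2, the GC offset and both. Depth limits all statements on members at or under 3 counts. In the co-cultured knockout libraries, 0 counts of MAGEB2 and GTSF1 allow up to 0.0359 CPM.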
